A study of Homo sapiens with 4 samples.

Results

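The cyclin-dependent kinase (CDK) inhibitors of the INK4 and CIP/KIP families were followed in T24 bladder cancer cells with and without ectopic CBX7. The set held 8 genes of the 60623 in the deposited table, taken by name. They were CDKN2A, CDKN2B, the antisense RNA CDKN2B-AS1, CDKN2C and CDKN2D of the INK4 family and the INK4-ARF locus, and CDKN1A, CDKN1B and CDKN1C of the CIP/KIP family. Total RNA was sequenced from 2 control libraries (T24-CON) and 2 libraries of cells expressing CBX7 (T24-CBX7), all grown in RPMI with serum. In the study, full-length CBX7 was cloned into a vector with a FLAG tag and used for stable overexpression. The labels do not describe the plasmid that the control cells carry, and do not say whether the 2 libraries of a group came from separate cultures, so that p-values measure only the spread between these libraries.

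CBX7 is a chromobox subunit of Polycomb repressive complex 1, which binds histone H3 trimethylated at lysine 27 and keeps target genes silent. The INK4-ARF locus is the best known of these targets: CDKN2A encodes p16INK4A and, from another first exon and reading frame, p14ARF, CDKN2B encodes p15INK4B, and CDKN2B-AS1 (ANRIL) is a long noncoding RNA transcribed from the opposite strand that has been linked to Polycomb recruitment there. INK4 proteins bind CDK4 and CDK6 and keep the retinoblastoma protein active, whereas ARF binds and restrains the ubiquitin ligase MDM2. The CIP/KIP proteins p21 (CDKN1A), p27 (CDKN1B) and p57 (CDKN1C) bind cyclin-CDK complexes more broadly. The comparison therefore asked whether the inhibitors were expressed in control T24 cells, so that repression could be seen, and whether their transcripts differed once CBX7 was high.

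In GENCODE release 29 on GRCh38, the INK4-ARF locus lies on chromosome 9, with CDKN2A at chr9:21967753-21995301 and CDKN2B at chr9:22002903-22009363, both on the minus strand. CDKN2B-AS1 runs on the plus strand at chr9:21994778-22121097, so its span covers the whole of CDKN2B without sharing an exon base with it. It shares 341 exon bases with CDKN2A, which are 7.88% of the exon bases of CDKN2A. Whether reads were counted by strand is not given in the sources used here, and without strand the reads of these 341 bases cannot be assigned to one or the other gene. The deposited counts of CDKN2A, CDKN2B-AS1 and CDKN2D were not whole numbers in any of the 4 libraries. For CDKN2B only the count in CBX7 replicate 2 was not whole, and those of CDKN2C, CDKN1A, CDKN1B and CDKN1C were whole in every library.

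The other inhibitors are spread over 5 chromosomes: CDKN2C, encoding p18INK4C, at chr1:50960745-50974633, CDKN2D, encoding p19INK4D, at chr19:10566462-10569059, CDKN1A at chr6:36676460-36687339, CDKN1B at chr12:12715058-12722371 and CDKN1C at chr11:2883213-2885773. CDKN2D and CDKN1C are on the minus strand and the rest on the plus strand. CDKN1A shares 146 exon bases with the antisense RNA DINOL. RefSeq (GRCh38.p14) start-site windows, from 250 bases before to 50 bases after a start, were matched for 7 of the 8 genes, 10 windows in all. Polycomb targets are typically rich in CG dinucleotides, and the windows of the inhibitors held a median of 28.5 of them, against 14 in all 35116 windows. At least 20 were found in 80% of the inhibitor windows and in 41.16% of all windows. The windows of CDKN2C held 8, 37 and 11. The letters GGGCGG, searched on both strands, occurred in 80% of the inhibitor windows and in 44.95% of all windows, and TATAAA in 0% and 11.53%. Bases upstream of a start are shown for CDKN2A, at the start of its ARF transcript, which lies 20467 bases from that of the p16 transcript, and for CDKN1A, the inhibitor with the lowest p-value in edgeR's test. CG dinucleotides are in capitals, 24 in the 250 bases of CDKN2A (chr9:21995325-21995574, minus strand) and 20 in the 194 bases of CDKN1A (chr6:36678464-36678657, plus strand). The stretch of CDKN2A ends at its start, whereas that of CDKN1A leaves out the last 56 bases before its start, which exons of other CDKN1A transcripts cover.
CDKN2A upstream of the ARF start: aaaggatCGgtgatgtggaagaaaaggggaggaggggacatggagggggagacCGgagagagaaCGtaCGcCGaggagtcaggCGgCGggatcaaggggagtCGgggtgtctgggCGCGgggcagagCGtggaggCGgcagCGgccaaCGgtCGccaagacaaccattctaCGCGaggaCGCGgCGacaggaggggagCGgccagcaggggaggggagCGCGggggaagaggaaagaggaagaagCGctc
CDKN1A upstream: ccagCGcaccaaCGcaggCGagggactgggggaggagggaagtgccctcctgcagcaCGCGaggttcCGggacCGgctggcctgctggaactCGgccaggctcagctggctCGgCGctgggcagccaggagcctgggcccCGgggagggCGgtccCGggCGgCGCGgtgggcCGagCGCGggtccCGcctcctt

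The libraries held 20800910 to 25135488 counts, at which 3 counts, used as the limit of detection, correspond to 0.119 to 0.144 CPM (counts scaled to a common library size). CBX7 itself was at 4.98 and 3.73 TPM (transcript level scaled for gene length and library size) in the control libraries and at 610 and 607 TPM in the CBX7 libraries, as labelled. In edgeR's quasi-likelihood test it differed by a log2 fold change of 7.35 (SE 0.18, adjusted p = 0.000584). Of the epithelial markers, KRT7, KRT8 and KRT18 were at 853 TPM or more in every library, KRT19 at 6.64 to 17.3 TPM, EPCAM at 0.58 to 1.78 TPM and CDH1 at no more than 2 counts, while the mesenchymal marker VIM was at 2206 TPM or more. KRT5, KRT20, TP63 and the uroplakins UPK1A, UPK1B, UPK2 and UPK3A had at most 3 counts, so the defining urothelial markers were largely absent apart from PPARG (22.8 to 25.9 TPM) and up to 22 counts of GATA3. Of markers of blood, endothelial and liver cells, PTPRC, CD3E, HBB, PECAM1 and ALB had at most 4 counts, and CD68 was at 6.29 to 11.5 TPM. CBX7 replicate 1 stood apart: across 11077 well-covered genes, its ratio to control replicate 1 correlated with gene length (Spearman -0.62), whereas that of CBX7 replicate 2 to control replicate 2 did not follow length (0.042). Both values are descriptions across genes, and results for the 8 genes that rest on either CBX7 library are given with and without it. In whole cultures, fewer cells expressing a gene and less RNA per cell cannot be told apart.

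All 8 genes were expressed in control T24 cells, taken as at least 1 TPM in both libraries, and all 8 remained so in CBX7 cells. CDKN2A was by far the most abundant inhibitor, at 164 and 156 TPM in the control libraries, which placed it 827th of the 23683 genes with a control level above 0. It provided 64.0% and 62.6% of the summed TPM of the 7 coding inhibitors in control cells, and 66.1% and 61.6% in CBX7 cells. CDKN2C followed at 37.0 and 35.9 TPM, CDKN1B at 25.3 and 27.2 TPM, CDKN1A at 15.5 and 15.1 TPM and CDKN2D at 10.6 and 10.5 TPM. CDKN1C (2.97 and 3.06 TPM), CDKN2B-AS1 (2.90 and 2.47 TPM) and CDKN2B (1.35 and 1.45 TPM) were the lowest. No neighbours in this order overlapped between the control libraries, but CDKN1C and CDKN2B-AS1 were separated only by 2.97 against 2.90 TPM.

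**Figure D1:**
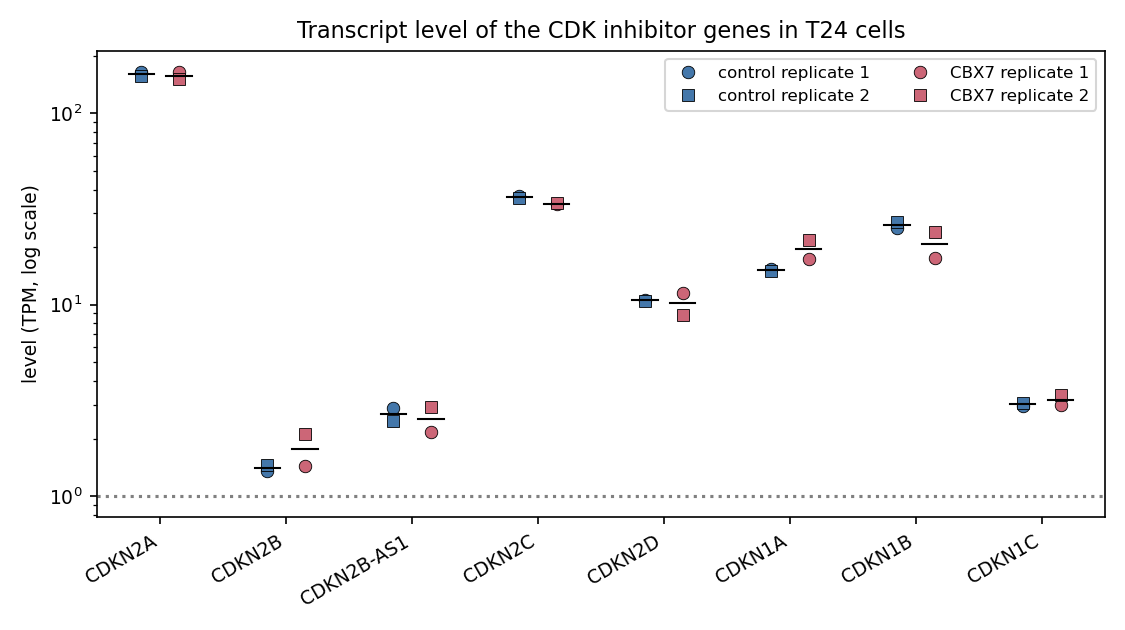
Level of the 8 genes in TPM (y axis, log scale) in each of the 4 libraries, with control in blue, CBX7 in red, circles for replicate 1, squares for replicate 2 and a bar at each group mean. Every point lies above the dotted line at 1 TPM, CDKN2A at 151 to 165 TPM stands above the others, and CDKN1A (CBX7 higher), CDKN1B and CDKN2C (CBX7 lower) show groups that do not overlap, as 12.2% and 17.4% of all genes tested did in these directions.

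Repression was thus measurable from these levels, with unequal room. Counts in the control libraries were 2217 and 1738 for CDKN2A, at least 579 times the detection limit, and 1108 and 927 for CDKN2C. CDKN2B had 87 and 83 counts, CDKN2B-AS1 had 99.8 and 93.9, and CDKN1C had 79 and 61, which are at least 20.3 times that limit. A loss of transcript to the limit would have been visible for every coding inhibitor. For CDKN2B-AS1 this is less certain. Other genes share 13.8% of its exon bases, 341 of them with CDKN2A, and without strand their reads may enter its count. Smaller decreases are bounded by the intervals given below for each gene, which rest on 2 libraries a group.

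None of the 8 genes passed the adjusted threshold of 0.05 in edgeR's quasi-likelihood test, in which 3 of all 14862 genes tested did (0.0202%). DESeq2's Wald test and limma on log2(TPM + 1) called 0 of the 8 as well. At an unadjusted p under 0.05 there was 1 of 8, CDKN1A, against 4.74% of all genes. All 8 passed the filter on low counts. Their median log2 fold change was 0.10, with 6 values above 0 and 2 below, against a median of 0.0017 over all genes tested. With offsets for gene length and GC content their median was -0.01, against 0.017 over all genes.

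At the INK4-ARF locus, none of the 3 transcripts was lower in CBX7 cells beyond the spread between libraries. CDKN2A was at 164 and 156 TPM in control and at 165 and 151 TPM in CBX7 libraries. The groups overlapped, and the CBX7 libraries enclosed the control libraries. On normalised counts, 92.9 and 82.8 CPM in control stood against 114 and 82.4 CPM, a log2 fold change of 0.16 (SE 0.19, adjusted p = 0.951). Its 95% interval ran from a decrease to an increase, from -19.9% to 56.6%. This value rested on which CBX7 library was used. Without CBX7 replicate 2 it was 0.38 and passed the threshold (adjusted p = 0.00249), in a fit that called 35.5% of all genes, whereas without CBX7 replicate 1 it was -0.088 (adjusted p = 0.931). With offsets for gene length and GC content it was -0.091 (adjusted p = 0.844). The deposited values are sums over the gene and do not separate p16INK4A from p14ARF transcripts.

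CDKN2B was at 1.35 and 1.45 TPM in control and at 1.43 and 2.10 TPM in CBX7 libraries. CBX7 replicate 2 was the highest and replicate 1 lay within the control range. The log2 fold change was 0.14 (SE 0.25, adjusted p = 0.951), with an interval from -28.0% to 69.4%. CDKN2B-AS1 was at 2.90 and 2.47 TPM against 2.17 and 2.91 TPM, so that the CBX7 libraries were both the lowest and the highest. Its log2 fold change was -0.03 (SE 0.24, adjusted p = 0.983), with an interval from -35.6% to 48.5%. Leaving out CBX7 replicate 1 or 2 gave 0.37 or -0.11 for CDKN2B and 0.19 or -0.28 for CDKN2B-AS1, with neither gene past the threshold. In both low transcripts the sign followed the CBX7 library that was kept.

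The INK4 genes outside the locus did not pass the threshold either. CDKN2C was at 37.0 and 35.9 TPM in control and at 33.6 and 33.8 TPM in CBX7 libraries. The TPM groups did not overlap and were lower with CBX7, but on CPM (46.4 and 44.2 against 49.9 and 40.8) they did overlap. The log2 fold change was 0.00 (SE 0.15, adjusted p = 0.998) from counts, with an interval from -23.2% to 30.6%, and -0.11 from limma on log2(TPM + 1), a fit in which the median of all genes was -0.083. CDKN2D was at 10.6 and 10.5 TPM against 11.5 and 8.82 TPM. In TPM the control libraries were nearly equal and the CBX7 libraries lay on either side of them. In CPM, CDKN2D was at 8.17 and 7.19 in control and at 9.90 and 6.09 in CBX7 libraries. Its log2 fold change was 0.06 (SE 0.27, adjusted p = 0.974), the interval ran from -34.4% to 65.2%, and the value was -0.33 without CBX7 replicate 1 and 0.36 without CBX7 replicate 2.

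Among the CIP/KIP genes, CDKN1A was higher in both CBX7 libraries, and CDKN1B lower. It was at 15.5 and 15.1 TPM in control libraries and at 17.3 and 21.9 TPM in CBX7 libraries. Both CBX7 libraries were above both control libraries, in TPM and also in CPM (22.6 and 21.5 against 28.7 and 30.6), a pattern that 15.4% of all genes tested showed in CPM. The log2 fold change was 0.43 (SE 0.13, interval 0.10 to 0.76), an increase of 34.3% with bounds of 6.82% and 68.9%. It did not pass the correction over all genes (unadjusted p = 0.0203, adjusted p = 0.853), and ranked 353rd of all genes tested by its unadjusted p. Over the 13 fits to all 4 libraries the value was 0.33 to 0.43 and the adjusted p 0.20 to 1. Leaving out CBX7 replicate 1 gave 0.47 and a call (adjusted p = 0.00697, 2.59% of genes called), and leaving out CBX7 replicate 2 gave 0.38 and a call (adjusted p = 0.0101, 35.5% of genes called). Without control replicate 1 or 2 it was 0.46 or 0.39, with no call.

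CDKN1B, encoding p27, was at 25.3 and 27.2 TPM in control and at 17.6 and 23.99 TPM in CBX7 libraries. Both CBX7 libraries were below both control libraries, and CBX7 replicate 1 was the lower. In CPM the groups (42.6 and 44.5 against 35.5 and 38.7) did not overlap either, as in 14.8% of all genes tested. The log2 fold change was -0.23 (SE 0.13, adjusted p = 0.951), or -14.9% with an interval from -32.2% to 6.97%. It was below 0 in each of the 13 fits to all 4 libraries, from -0.35 to -0.23, with adjusted p from 0.19 to 1. Without CBX7 replicate 2 the value was -0.30, and without CBX7 replicate 1 it was -0.17.

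CDKN1C, an imprinted gene encoding p57, was at 2.97 and 3.06 TPM in control and at 2.99 and 3.37 TPM in CBX7 libraries. The groups overlapped in TPM. In CPM (3.31 and 2.91 against 3.73 and 3.49) they did not, with CBX7 higher. Its log2 fold change was 0.21 (SE 0.22, adjusted p = 0.951), with an interval from -21.1% to 70.5%, and was 0.03 with the length and GC offsets. Groups were apart in the same direction on both scales for CDKN1A, as for 8.22% of all genes tested, and for CDKN1B, as for 8.59%.

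**Figure D2:**
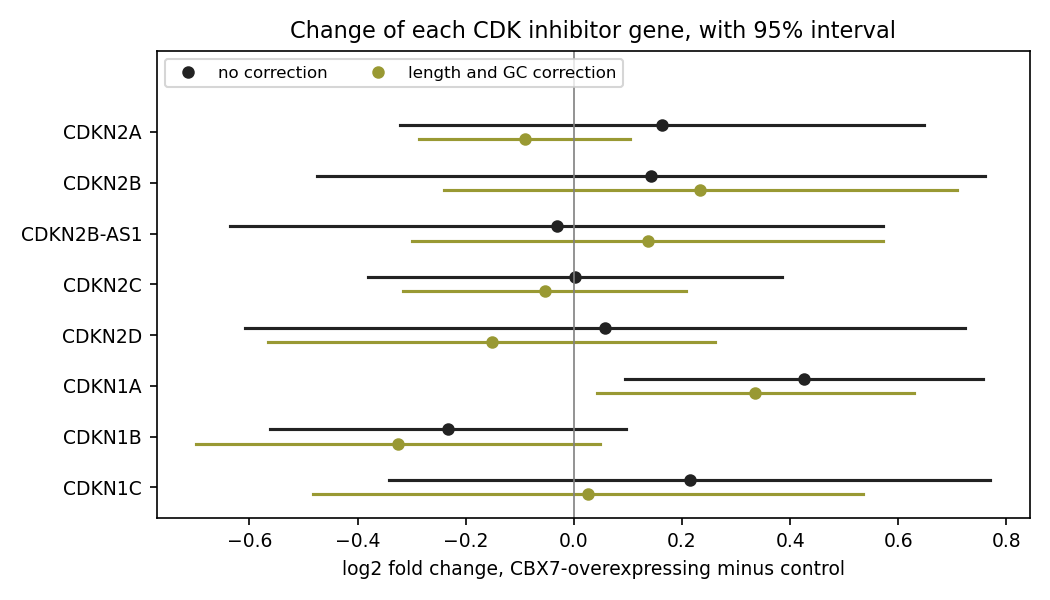
Log2 fold change of each of the 8 genes, CBX7-overexpressing minus control (x axis), with its 95% interval, from the fit with no correction (black) and with offsets for gene length and GC content (olive). The interval of CDKN1A lies above 0 in both fits, those of the other 7 genes include 0, and CDKN2A, CDKN2B-AS1, CDKN2C and CDKN2D change sign between the fits.

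**Figure D3:**
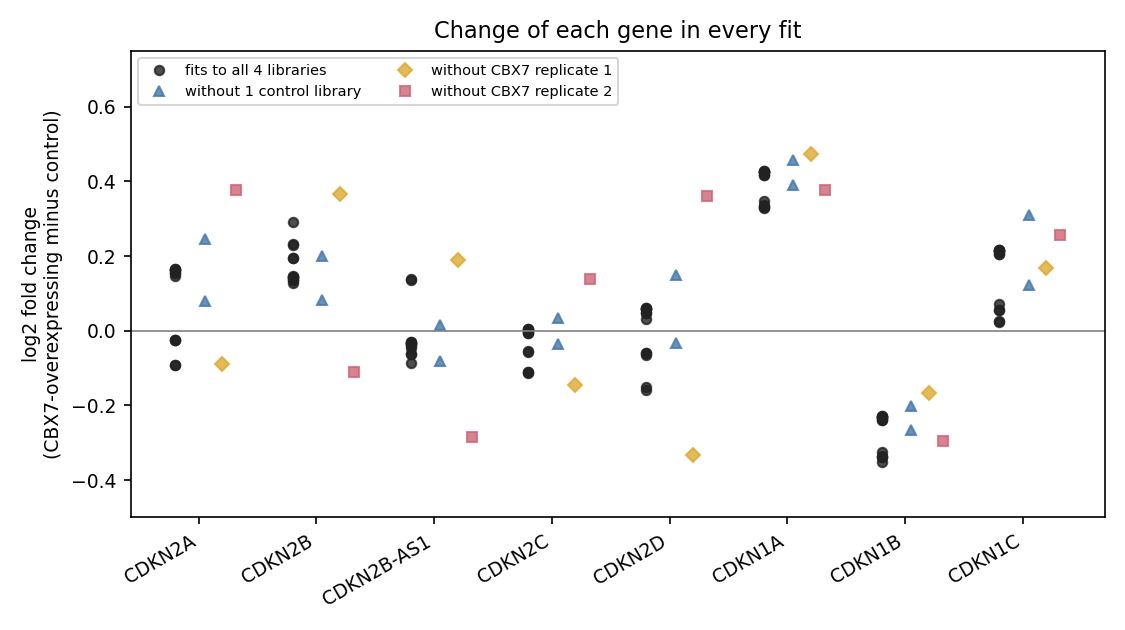
Log2 fold change of each gene, CBX7-overexpressing minus control (y axis), in the 13 fits to all 4 libraries (black circles) and in the 4 fits that leave out 1 library (coloured symbols). CDKN1A and CDKN1C stay above 0 and CDKN1B below 0 in every fit, whereas leaving out CBX7 replicate 1 (yellow) or CBX7 replicate 2 (red) puts each of the INK4 genes and CDKN2B-AS1 on opposite sides of 0.

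The partners of the inhibitors were read from 6 lists of pathway genes, 81 genes in all, of which 80 were in the table and 75 passed the filter. None of the 75 passed the adjusted threshold in edgeR's quasi-likelihood test, with 5 of 75 at an unadjusted p under 0.05, near the 4.74% of all genes tested, and DESeq2's Wald test and limma called 0 as well. CDK4, the more abundant of the kinases that INK4 proteins bind, was at 294 and 286 TPM in control and 305 and 295 TPM in CBX7 libraries, and CDK6 at 11.4 and 16.8 against 8.19 and 19.8 TPM. RB1, the brake that INK4 proteins keep active, was present at 28.1 and 33.0 against 17.3 and 33.5 TPM. For these partners CBX7 replicate 1 and 2 disagreed. The log2 fold change of CDK6, 0.04 with all libraries, was 0.39 without CBX7 replicate 1 and -0.42 without CBX7 replicate 2, in opposite directions. CDK4 (0.19) was -0.0030 without CBX7 replicate 1 and 0.36 without CBX7 replicate 2, and RB1 (-0.19) was 0.13 and -0.59. With offsets for gene length and GC content, CDK6 was 0.25, CDK4 0.12 and RB1 -0.079, none past the threshold. The level of CDK4 and CDK6 summed to 303 to 315 TPM in the 4 libraries, against 196 to 213 TPM for the coding INK4 genes. The latter sum includes all of CDKN2A, whose p14ARF transcripts encode an MDM2-binding protein and cannot be separated here. Both are sums of RNA levels and give no balance of proteins. The RB and G1 cyclin-CDK list had a median log2 fold change of 0.03 over 21 genes.

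On the axis of ARF and MDM2, MDM2 was at 35.9 and 40.3 against 26.9 and 45.4 TPM, with overlapping groups. The 15 genes of that list had a median of -0.02. GDF15 (5.57 and 4.86 against 6.89 and 7.36 TPM) and BTG2 (0.50 and 0.52 against 0.61 and 0.83 TPM), both known as stress-responsive genes, had log2 fold changes of 0.56 and 0.84, each with an adjusted p of 0.951. BTG2 had only 18 and 18 against 34 and 33 counts and stayed under 1 TPM in every library. Its value was 0.76 with the length and GC offsets and 0.18 in limma on log2(TPM + 1). GDF15 was 0.42 without CBX7 replicate 1 and 0.68 without CBX7 replicate 2, and was 0.33 with the length and GC offsets. SKP2, the F-box protein that marks p27 for degradation, was at 23.5 and 25.5 against 19.5 and 28.2 TPM, and the 14 regulators of CIP/KIP genes had a median of -0.16, or -0.04 with the length and GC offsets.

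Among neighbours of the INK4-ARF locus, MTAP, the metabolic enzyme gene often co-deleted with CDKN2A in tumours, was at 26.8 and 33.3 against 24.3 and 33.9 TPM, with a log2 fold change of -0.03. The 5 tested genes of that list had a median of -0.11, or -0.00069 with the offsets. CDKN2A-DT was at or under 3 counts in every library and gives no comparison. Around CDKN1C on 11p15, PHLDA2, an imprinted growth regulator, was at 109 and 104 against 162 and 134 TPM, and SLC22A18, an imprinted transporter gene, at 9.27 and 9.18 against 12.7 and 14.9 TPM. Both had a log2 fold change of 0.62 without passing the threshold (adjusted p = 0.951 and 0.713). PHLDA2 was 0.29 without CBX7 replicate 1, 0.90 without CBX7 replicate 2, and 0.34 with the length and GC offsets. SLC22A18 was 0.61 without CBX7 replicate 1 and 0.63 without CBX7 replicate 2, and was 0.44 with the offsets and no call. The 6 tested genes of that list had a median of 0.27, or 0.05 with the offsets. Of the Polycomb list, with a median of -0.01 over 14 genes, CBX2, another chromobox subunit, was at 7.13 and 7.93 against 9.12 and 9.39 TPM (log2 fold change 0.43, adjusted p = 0.935). It was 0.37 without CBX7 replicate 1 and 0.48 without CBX7 replicate 2.

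**Figure D4:**
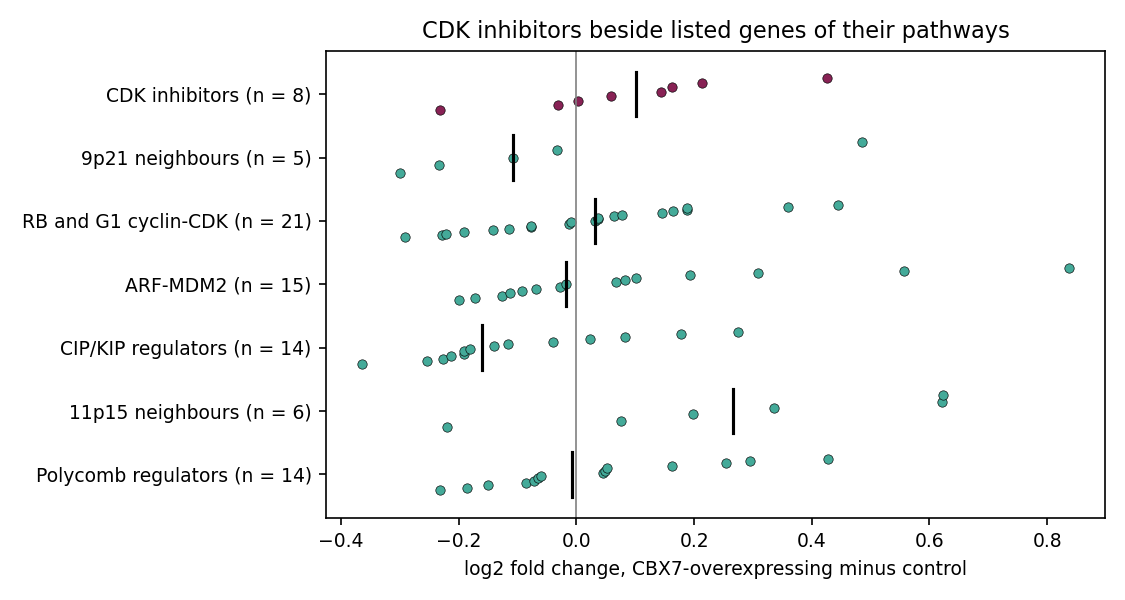
Log2 fold change, CBX7-overexpressing minus control (x axis), of the 8 genes (purple) and of the tested genes of each of 6 pathway lists (green), 1 point a gene, with a bar at each median. List medians lie between -0.16 and 0.27 in this fit without offsets, and CDKN1A at 0.43 is the rightmost and CDKN1B at -0.23 the leftmost of the 8.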

How the data were processed

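RNA of T24 cells was compared between 2 control and 2 CBX7-overexpressing libraries. Per gene, the authors deposited an estimated count (88.2% to 88.9% of values whole) and a TPM value, besides their own fold changes and p-values, which were not used. The submitters' processing notes name cutadapt 1.9.1, HISAT2 2.0.1, HTSeq 0.6.1, DESeq2 and hg19. HTSeq gives whole counts, so the tool behind the deposited estimates is not given in the sources used here. Coordinates come from GENCODE release 29 and RefSeq on GRCh38.

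Counts were rounded and filtered with filterByExpr (14862 genes kept), then fitted with TMM scaling and edgeR 4.0.16 (R 4.3.3, quasi-likelihood test, condition only, Benjamini-Hochberg over all genes, threshold 0.05). Intervals of 95% used the test's SE and degrees of freedom. Alternatives used DESeq2 1.42.0, limma 3.58.1 on log2(TPM + 1), where fold changes of low genes are understated, other filters, and offsets for length and GC content. On simulated data in which 200 of 14862 genes differed by a log2 fold change of 1.5, edgeR recovered 191 with 7 false calls. Recovery of smaller differences, such as the 0.43 of CDKN1A, the largest among the members, was not tested. Intervals and detection limits cover these libraries and counting error only. Members and pathway lists were chosen with earlier results of these data known. List genes past an unadjusted p of 0.05 were named after their values were seen, and otherwise CBX7 and the partners of members were named.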

Additional observations from a re-analysis of the deposited data

How the results depend on the processing

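The number of genes past the threshold was 3, and was 67 (5 lower) with DESeq2's Wald test, 265 (47 lower) with no filter, 1 with the newer quasi-likelihood form and no filter, 5 with the length and GC correction, 1 with limma on log2(TPM + 1) and no filter, and 45 to 5491 when 1 library was left out, in which case the lone library is assumed to vary like the others. The highest of these, 5491, came without CBX7 replicate 2, against 397 without CBX7 replicate 1, 59 without control replicate 1 and 45 without control replicate 2. The listed genes called, 0 in the main test, ranged from 0 to 35 when 1 library was left out: 3 without CBX7 replicate 1, where 2.59% of all genes tested passed, and 35 without CBX7 replicate 2, where 35.5% did. With the replicate number as a block, 361 genes passed (91 lower), and 245 (51 lower) with the block and the correction; 2 listed genes passed under the block, PHLDA2 (0.59, adjusted p = 0.0158) and SLC22A18 (0.63, adjusted p = 0.0350), and none of the 8 inhibitors. With the block and the correction both calls were lost (0.34, adjusted p = 0.124, and 0.43, adjusted p = 0.250). Same-numbered libraries deviated together (correlation 0.31 over 14862 genes and 0.61 over 11077 genes averaging 100 counts or more), but no label says what the number marks. The cause was not tested for any of these shifts.

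Signs turned against 0 as follows. The whole table shifted as well: the median of all genes was -0.083 and -0.098 in limma on log2(TPM + 1) and log2(TPM + 0.1), -0.033 in limma with no filter and -0.0066 with DESeq2's size factors, against 0.0017 in the main test. CDKN2A lay above that median in each limma fit, CDKN2D in those with a filter, and CDKN2C equalled it under the size factors. CDKN2A was -0.091 with the correction, with and without the block, and -0.025 in the 3 limma fits. CDKN2B-AS1 was 0.14 with the correction and 0.14 with the block added. CDKN2C, at 0.0022 in the main test, was -0.0066 with DESeq2's size factors and its Wald test, -0.0037 with the block, -0.054 with the correction, -0.057 with both, and -0.11 in limma. CDKN2D was -0.15 with the correction, -0.16 with both, and -0.059, -0.065 and -0.059 in limma. MTAP was 0.18 with the correction, 0.17 with both and 0.039 without CBX7 replicate 1. CDK6 was -0.00014 with the block, -0.10, -0.12 and -0.10 in limma, and -0.17 to 0.27 without a control library and -0.42 to 0.39 without a CBX7 library; CDK4 was -0.0030 to 0.36 and RB1 -0.59 to 0.13 when 1 library was left out. When 1 library was left out, CDKN2A ranged from -0.088 to 0.38, CDKN2B from -0.11 to 0.37, CDKN2B-AS1 from -0.28 to 0.19, CDKN2C from -0.15 to 0.14, CDKN2D from -0.33 to 0.36, CDKN1A from 0.38 to 0.47, CDKN1B from -0.30 to -0.17 and CDKN1C from 0.12 to 0.31. CBX7 passed in every fit, at 6.84 to 7.44. At 61 to 110 counts a library, CDKN2B, CDKN2B-AS1 and CDKN1C are limited by depth as well as by the number of libraries.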

Other observations

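CDKN1A and CDKN1B, which encode the G1 inhibitors p21 and p27, lay on opposite sides of 0, and their ratio was therefore looked at after their values were seen. The TPM ratio of CDKN1A to CDKN1B was 0.612 and 0.554 in the control libraries and 0.982 and 0.912 in the CBX7 libraries, with means of 0.583 ± 0.041 and 0.947 ± 0.049 (SD, n = 2 each). That the groups did not overlap follows from CDKN1A being higher and CDKN1B lower in both CBX7 libraries, and adds no support. A two-sided exact permutation test over libraries gave p = 0.333, the smallest p that 2 libraries against 2 allow, so that the test cannot pass a threshold of 0.05 here. The summed TPM of the CIP/KIP genes was 43.7 and 45.4 in control and 37.9 and 49.2 in CBX7 libraries, and those groups overlapped.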
